A study of Mus musculus with 18 samples.

Results

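The cytosolic ribosomal protein genes were followed in non-activated and activated mouse muscle stem cells, with and without pregnancy. They were taken by name as all genes called Rpl or Rps followed by a number, Rpsa and the stalk genes Rplp0 to Rplp2, leaving out the Rps6 kinases and names marked as pseudogenes. Of 92 names that matched, 71 had values and are the members described here, out of 10792 genes with values among 47729 listed. Of these 71 members, 36 encode core proteins of the large subunit, 27 encode core proteins of the small subunit and 3 form the P-stalk. A further 3 are paralogs of core proteins (Rpl22l1, Rpl36al and Rps27l), and 2 match by name without encoding a protein of the mature ribosome (Rpl7l1 and Rps19bp1). The 21 names with no value include 16 protein-coding genes, among them Rps6, Rps25, Rps27a, Rps28, Rpl5, Rpl12, Rpl13, Rpl23a, Rpl24, Rpl32 and Rpl35, so the 71 members are not the whole ribosome. No member was removed by the filter on low values, and the lowest raw count of a member in any library was 63.

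Ribosomes translate every cytoplasmic mRNA, and each of them holds nearly all of these proteins in equal number. The mRNAs of vertebrate ribosomal proteins share a start with a cytosine followed by a run of pyrimidines, the 5′ terminal oligopyrimidine or TOP motif, through which mTORC1 and the RNA-binding protein Larp1 control their translation together. Quiescent muscle stem cells are small and make little protein, and on activation they enlarge, divide and build ribosomes. Proteins left over from assembly, Rpl5 and Rpl11 above all, can bind Mdm2 and release p53.

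The mice were C57BL/6, 8.5 to 9 months old, and stem cells of their hind-limb muscles were sorted as VCAM1+, CD31-, CD45- and Sca1-. The 4 groups were non-activated cells (3 libraries) and activated cells (6 libraries) of virgin mice, and non-activated cells (3 libraries) and activated cells (6 libraries) of pregnant mice, and the labels name no transgene in any of them. Activation followed injury by repeated piercing with a 23-gauge needle. The time from injury to collection, the stage of pregnancy and whether each library is a separate animal are not in the labels, so that p-values measure only the spread between these libraries. Non-activated libraries hold total RNA depleted of ribosomal RNA (SMARTer stranded kit), whereas activated libraries hold poly-A RNA (TruSeq kit), so activation and kit cannot be told apart in any comparison of activated with non-activated cells, while each pregnancy comparison lies within 1 kit. Total counts were 14043324 to 24336842 per library. Within a group, log values over genes correlated between libraries at 0.872 to 0.95 in the non-activated and 0.977 to 0.994 in the activated groups (Pearson's r, across genes, which are not independent replicates). Of 11 listed satellite cell markers 9 had values, Pax7, Myf5 and Vcam1 among them, and none of the 9 was at 0 in any whole group.

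The start regions of the members are shown first, because the TOP motif is the feature these mRNAs are known to share. RefSeq start regions (GRCm38.p6) were found for 54 members, with 65 windows, since 9 members have more than 1 start. Each sequence runs 5′ to 3′ on the gene's strand over 40 bases, with 20 on each side of the start, and capitals mark the longest run of C and T in it. Rpl15 (chr14:18270967-18271006, minus strand), Rps10 (chr17:27635225-27635264, minus) and Rplp2 (chr7:141447631-141447670, plus) are shown as members with a long run over the start. Rps27 (chr3:90213629-90213668, minus) stands beside its paralog Rps27l (chr9:66946066-66946105, plus). Rps21 (chr2:180257359-180257398, plus) had the highest log2 change with activation among the members, while Rpl13a (chr7:45128726-45128765, minus) and Rpl26 (chr11:68901546-68901585, plus) did not rise. Rpl7l1 (chr17:46782637-46782676, minus) is not a protein of the mature ribosome. Where Rps21 and Rps27l have a second start, the one closest to the start in the deposited table is printed.
Rpl15: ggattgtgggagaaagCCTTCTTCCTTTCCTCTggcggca
Rps10: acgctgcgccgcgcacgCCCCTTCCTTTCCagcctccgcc
Rplp2: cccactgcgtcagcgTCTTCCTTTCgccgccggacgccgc
Rps27: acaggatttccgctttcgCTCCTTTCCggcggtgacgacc
Rps27l: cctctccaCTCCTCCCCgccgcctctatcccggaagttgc
Rps21: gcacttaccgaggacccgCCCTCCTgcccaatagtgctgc
Rpl13a: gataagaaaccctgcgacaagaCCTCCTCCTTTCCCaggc
Rpl26: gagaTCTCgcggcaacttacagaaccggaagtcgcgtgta
Rpl7l1: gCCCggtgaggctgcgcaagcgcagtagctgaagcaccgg
The longest run was 17 bases in Rpl15, 14 in Rpl13a, 13 in Rps10, 10 in Rplp2, 9 in Rps27 and in Rps27l, 7 in Rps21, 4 in Rpl26 and 3 in Rpl7l1. In Rps27l the run ended before the RefSeq start, whereas in Rps27 it lay across it.

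A run of at least 8 C or T within these 40 bases was present in 40.0% of the members' windows, in 16.4% of the windows of all genes with values and in 16.0% of all RefSeq windows. Over 300 bases, from 250 before to 50 after the start, the ETS-type motif CCGGAAG was found on either strand in 35.4% of the members' windows against 15.5% of those of all genes with values. The YY1-type motif AAGATGGC, searched on both strands, was in 12.3% against 4.0%, and TATAA, on the gene's strand, in 21.5% against 9.19%. Over all windows of the table the 3 motifs were in 8.86%, 2.75% and 17.5%. The motifs can share letters (CCGGAAG and AAGATGGC share AAG, and the pyrimidine run can cover part of either on the opposite strand), and a match is a description of the letters, not of binding.

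Counts of the 71 members made up a larger share of the library in activated than in non-activated cells, without overlap between the libraries. In non-activated cells of virgin mice the share was 2.12%, 1.80% and 1.63% in replicates 1 to 3 (mean 1.85% ± 0.249, SD, n = 3), and in those of pregnant mice 1.33%, 2.20% and 2.31% (1.95% ± 0.537, SD, n = 3). In activated cells of virgin mice it ran from 5.47% over a median of 7.07% to 7.58% (6.73% ± 0.824, SD, n = 6), and in those of pregnant mice from 5.26% over 5.63% to 5.89% (5.62% ± 0.263, SD, n = 6). The share in activated cells was lower on average with pregnancy, but replicate 1 of the virgin mice, at 5.47%, lay inside the range of the pregnant mice and replicate 4, at 5.96%, just above it. Small-subunit genes took 35.4% ± 0.404 (SD, n = 3) of the core counts in non-activated and 43.3% ± 0.426 (SD, n = 6) in activated cells of virgin mice, and 35.7% ± 0.723 (n = 3) and 43.4% ± 0.214 (n = 6) in pregnant mice. No test was made of these sums. In bulk RNA, fewer cells of a type and less RNA per cell cannot be told apart.

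**Figure D1:**
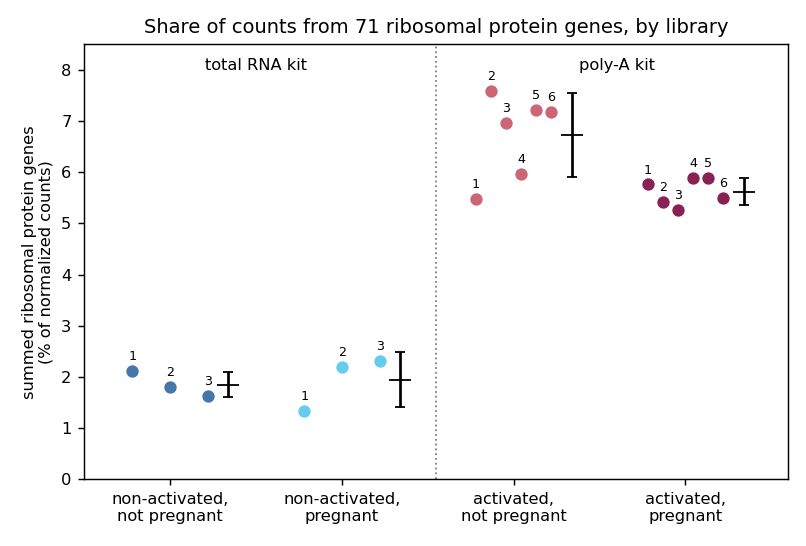
Share of all normalized counts that came from the 71 ribosomal protein genes, in percent, for each of the 18 libraries, with replicate numbers above the points and the mean and SD of each group beside them. Non-activated libraries lie between 1.33% and 2.31% and activated libraries between 5.26% and 7.58%; the dotted line parts the 2 library kits.

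Comparing activated with non-activated cells of virgin mice asked which members differ after injury. Normalized counts of 69 of 71 members were higher in activated cells, 1 was lower and 1 did not pass the test (limma, Benjamini-Hochberg adjusted p under 0.05), where 39.0% of all 10751 genes tested were called higher and 33.6% lower. The members' median log2 change was 2.17, with a range from -0.38 to 4.83, and the median of all genes tested was 0.17. In 67 members all activated libraries lay above all non-activated ones, as did 36.3% of all genes tested. All 27 small-subunit genes were higher (median log2 change 2.26), as were 34 of 36 large-subunit genes (2.18), the 3 P-stalk genes (1.18) and the 3 paralogs (2.75). Cell division markers were higher with them (6 of 6, sums of normalized counts 1714 to 4000 against 20839 to 35653). So were 7 of 10 fibro-adipogenic markers (30396 to 36638 against 73010 to 97068) and 3 of 5 leukocyte markers (163 to 284 against 774 to 1158). Of 6 endothelial markers 2 were higher and 1 lower, and of 6 smooth muscle and pericyte markers 4 were higher and 1 lower. Of 9 satellite cell markers 4 were higher and 2 lower, of 5 myofibre markers 2 were higher, and the 1 erythroid marker was higher. The part of other cells in the members' change was not tested.

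Rps21, a small-subunit protein (ENSMUSG00000039001, chromosome 2, 180257377 to 180258445), had the largest log2 change, 4.83 ± 0.25 (SE, adjusted p = 4.41e-12). Its normalized counts were 429.0, 382.4 and 446.6 in non-activated libraries and ran from 8417 over a median of 13094 to 14187 in activated ones. The lowest activated library was far above the highest non-activated one. Rps27l, the p53-inducible paralog of Rps27 (ENSMUSG00000036781, chromosome 9, 66946086 to 66949516), followed with 4.28 ± 0.19 (SE), from 120.8, 66.2 and 108.1 to a range of 1712 to 2333 (median 1763). Rps29, a zinc-binding small-subunit protein, changed by 4.03 ± 0.18, from 409.4, 254.7 and 300.8 to 4189 to 6178 (median 5456). Rpl37a, a zinc-binding large-subunit protein, changed by 3.85 ± 0.20, from 534.1, 552.4 and 559.0 to 6101 to 9492 (median 8405). None of these 3 genes overlapped between the groups either.

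Rpl3 and Rpl4 encode proteins that reach the catalytic centre and the wall of the exit tunnel. Rpl3 was at 5986, 5789 and 5127 normalized counts in non-activated cells and at 17683 to 23607 (median 21833) in activated cells, a log2 change of 1.91 ± 0.11 (SE). Rpl4 went from 23315, 18342 and 17463 to 40891 to 56148 (median 52423), by 1.35 ± 0.16. Rpl10, which joins late in assembly, changed by 1.78 ± 0.15, Rpl10a, of the L1 stalk, by 2.49 ± 0.15, and Rpl38, needed in mice for translation of some Hox mRNAs, by 2.77 ± 0.18. Rpl11, which with Rpl5 binds Mdm2, had a mean 9.13-fold higher in activated cells. Its counts were 1466, 953.3 and 1040 in non-activated and 8999 to 12493 (median 10615) in activated libraries, with no overlap. In the small subunit, Rps3, at the mRNA entry, changed by 2.40 ± 0.15, Rps19, mutated in Diamond-Blackfan anaemia in humans, by 2.17 ± 0.21, and Rpsa, also known as the laminin receptor precursor, by 1.02 ± 0.16. Every one of these was called higher. With the trend on genomic span taken out, as described below, Rpsa was called lower (-0.40, limma, adjusted p = 0.0107) and Rpl10 stood at -0.067 (0.584).

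**Figure D2:**
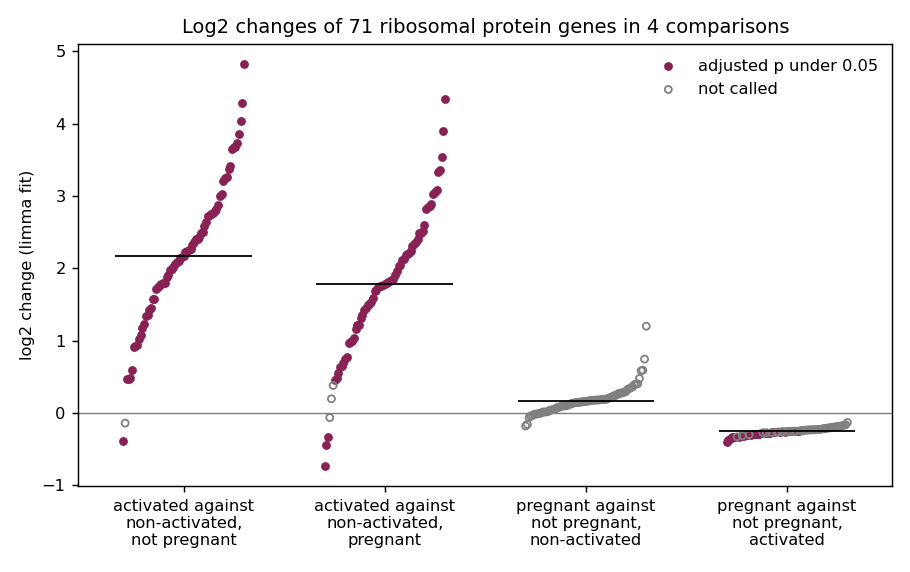
Log2 change of each of the 71 members in 4 comparisons, in order of size within each comparison, from the limma fits; filled points passed the test and bars are medians over the members. Most members lie well above 0 in both activation comparisons (medians 2.17 and 1.79), around 0 in non-activated cells of pregnant against virgin mice (0.16) and all below 0 in activated cells (-0.26).

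The members that did not rise belong to the large subunit. Rpl26, which lies at the tunnel exit and binds p53 mRNA in human cells, was lower in activated cells by a log2 change of -0.38 ± 0.16 (SE, adjusted p = 0.0354). Its normalized counts were 13584, 11221 and 11671 in non-activated libraries and 7023 to 10939 (median 10106) in activated ones, which did not overlap. The call ended without non-activated replicate 1 or 3 or activated replicate 1 or 4 (log2 change -0.30 to -0.41), and with every library scaled to the same total (-0.19). In the authors' deposited table Rpl26 did not pass either (log2 fold change -0.371, DESeq2, adjusted p = 0.0752). That table called 0 of 71 members lower in this comparison, beside 3818 of 10725 genes. Rpl13a, a part of the interferon-driven GAIT complex in human myeloid cells and host of 4 small nucleolar RNAs, gave 41120, 31380 and 27752 counts in non-activated and 23698 to 35796 (median 30496) in activated libraries, with overlapping groups (-0.14 ± 0.19, adjusted p = 0.518). Its sign turned without non-activated replicate 1 (0.02) and with every library scaled to the same total (0.05). Called higher with small changes were the stalk gene Rplp2 (0.48 ± 0.14) and Rps7, another Mdm2 partner (0.59 ± 0.18).

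The P-stalk is the arm of the large subunit that calls in elongation factors, with Rplp0 at its base and Rplp1 and Rplp2 as pairs on it. Rplp0 was at 22737, 17650 and 15871 normalized counts in non-activated and 36597 to 47735 (median 42631) in activated cells, a log2 change of 1.18 ± 0.18. For Rplp1 the values were 6542, 5628 and 4657 against 19173 to 26474 (median 23165), a change of 2.02 ± 0.25. Rplp2 had 10506, 10210 and 9113 against 11337 to 15447 (median 14524). All 3 were separate between the groups, with a smaller step for Rplp2 than for its partner Rplp1, although that difference was not tested.

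In pregnant mice 65 of 71 members were higher in activated cells, 3 were lower and 3 did not pass, where 40.3% of all genes tested were called higher and 32.6% lower. Their median log2 change was 1.79, beside 0.21 over all genes, and 64 members had all activated libraries above all non-activated ones, as had 33.6% of all genes. Higher here too were 5 of 5 leukocyte markers (sums of normalized counts 68 to 189 against 1571 to 7041), 8 of 10 fibro-adipogenic markers (29030 to 59143 against 111338 to 179742) and 6 of 6 cell division markers (1128 to 2524 against 20906 to 32377). Of 6 endothelial markers 3 were higher and 1 lower, and of 9 satellite cell markers 3 were higher and 3 lower. Of 6 smooth muscle and pericyte markers 5 were higher, of 5 myofibre markers 2, and the 1 erythroid marker did not pass. The part of other cells in the members' change was not tested. Rps21 again had the largest change, 4.34 ± 0.25 (SE, adjusted p = 2.49e-11), with 277.2, 390.4 and 939.0 normalized counts in non-activated and 8361 to 10660 (median 9316) in activated cells. Rps27l changed by 3.90 ± 0.19, Rps29 by 3.53 ± 0.18 and Rpl37a by 3.36 ± 0.20. Lower were Rpl26 (-0.73 ± 0.16, adjusted p = 0.000385), Rpl13a (-0.44 ± 0.19, 0.0479) and Rpl7l1 (-0.33 ± 0.12, 0.02). Rpl26 gave 9767, 16577 and 14734 counts in non-activated and 7261 to 8845 (median 8089) in activated libraries, with no overlap, whereas the groups overlapped for the other 2. The calls of Rpl13a and Rpl7l1 ended without non-activated replicate 2 of the pregnant mice, that of Rpl13a also without replicate 3 of that group or without any of activated replicates 1, 2, 3, 5 and 6, and both ended with every library scaled to the same total (-0.15 and -0.04).

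Rps7 and Rplp2 were among the members that did not pass in pregnant mice. Rps7 had a log2 change of 0.38 ± 0.18 (SE, adjusted p = 0.0611) and passed without non-activated replicate 2 or 3 (0.49 and 0.55). Rplp2 had -0.07 ± 0.14 (adjusted p = 0.681), with 8979, 12146 and 15628 counts in non-activated and 10334 to 12610 (median 11324) in activated libraries, and 0.13 without non-activated replicate 3. With every library scaled to the same total Rps7 passed (0.67) and Rplp2 stood at 0.22. Scaling to the same total moved the median of all genes from 0.21 to 0.50 in this comparison and from 0.17 to 0.36 in virgin mice, so directions near 0 are relative to that scale.

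Paralogs of core proteins can take a partner's place in the ribosome. Counts of such pairs, and of all members with pseudogene copies, depend on how reads that fit several places were counted, which the sources used here do not give. Rpl22l1 had 179.7, 409.3 and 565.4 normalized counts in non-activated and 2064 to 2622 (median 2349) in activated cells of virgin mice, a log2 change of 2.75 ± 0.29 (SE). Its partner Rpl22 had 3021, 3111 and 3333 against 6263 to 9893 (median 9119), a change of 1.42 ± 0.14. Both were separate between the groups. Rps27l changed by 4.28 ± 0.19 beside 3.00 ± 0.24 for Rps27, and Rpl36al by 1.97 ± 0.14 beside 2.73 ± 0.19 for Rpl36a, so that 2 paralogs had a larger and 1 a smaller change than the partner; the differences within pairs were not tested. Rpl7l1, whose yeast counterpart Rlp7 acts in assembly of the large subunit, went from 1794, 2017 and 2022 to 2505 to 2960 (median 2663), by 0.46 ± 0.12, and Rpl7 by 1.23 ± 0.14. Rps19bp1, which binds Rps19 and the deacetylase Sirt1, went from 123.7, 100.8 and 135.8 to 431.5 to 597.0 (median 493.9), by 2.08 ± 0.16.

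**Figure D3:**
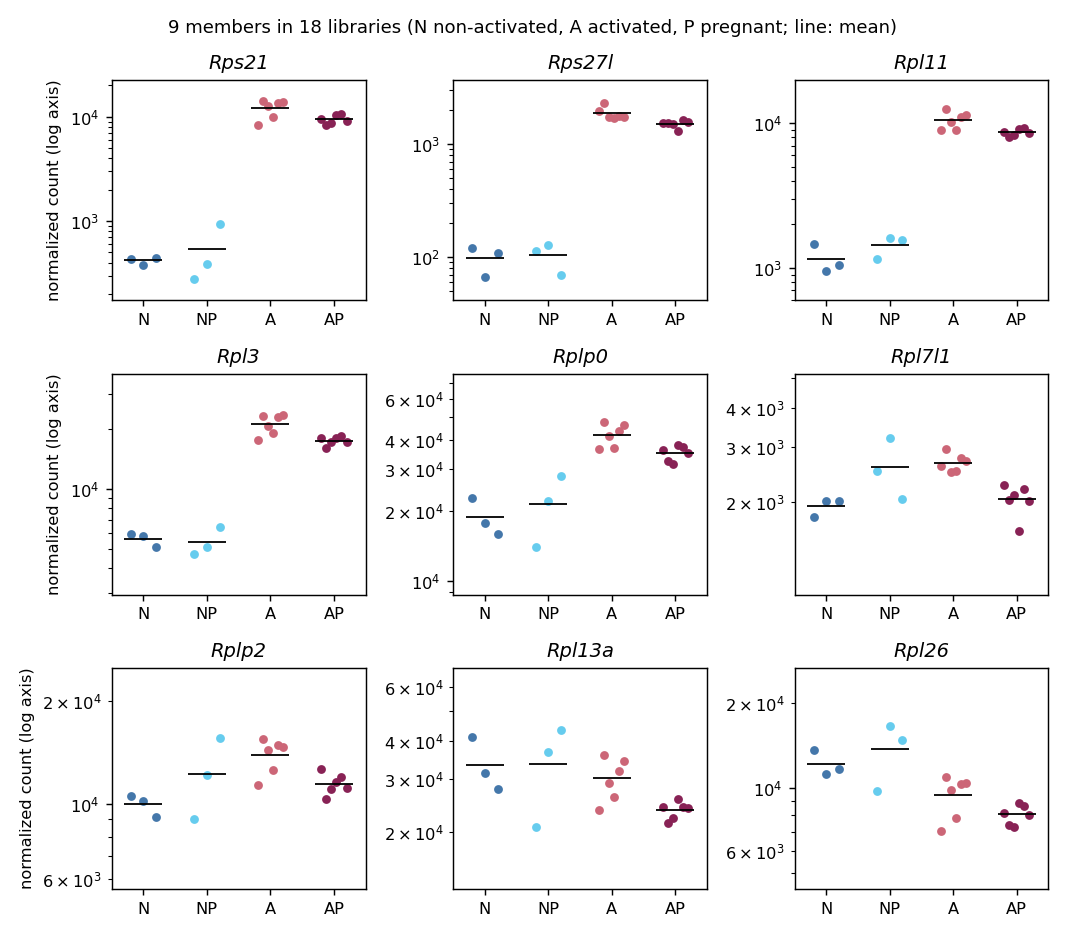
Normalized counts of 9 members in each library on log axes, with the group mean as a line and points in order of replicate number within a group; N is non-activated, A activated and P pregnant. Rps21, Rps27l, Rpl11 and Rpl3 are higher in all activated libraries, Rplp0 less so, Rplp2, Rpl13a and Rpl7l1 overlap in at least 1 activation comparison, and Rpl26 is lower in activated libraries of virgin and of pregnant mice.

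Activated cells of pregnant and virgin mice were prepared with the same kit, and this comparison asked what pregnancy changes after injury. All 71 members had a log2 change below 0, where 51.9% of all 10499 genes tested did. The members' median was -0.26, in a narrow range from -0.40 to -0.13, and the median of all genes was -0.01. The test called 30 members lower and none higher, where 13.4% of all genes tested were called lower and 14.0% higher, and 58 members were lower at an unadjusted p under 0.05, as were 21.2% of all genes. These 30 were 14 of 36 large-subunit genes, 10 of 27 small-subunit genes, 2 of 3 P-stalk genes, 2 of 3 paralogs and both genes outside the mature ribosome. In the authors' deposited table, 4 of the 71 members were lower at an adjusted p under 0.05 (Rpl3, Rpl7l1, Rpl19 and Rpl27) and none higher, where that table called 2.55% of all its genes lower.

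The largest fall was that of Rpl7l1 (ENSMUSG00000063888, chromosome 17, 46773907 to 46782656), at a log2 change of -0.40 ± 0.08 (SE, adjusted p = 0.00402). Its normalized counts ran from 2505 over 2663 to 2960 in virgin and from 1614 over 2073 to 2263 in pregnant mice, without overlap. Rpl41, which encodes the shortest ribosomal protein (ENSMUSG00000093674, chromosome 10, 128548114 to 128549305), fell by 0.38 ± 0.08 (adjusted p = 0.00631), from 11889 to 17020 (median 12977) to 9695 to 10981 (median 10367). These groups did not overlap either. Rpl36 was lower by -0.36 ± 0.09, with 5240 to 7453 (median 6848) against 4518 to 5567 (median 5007), and Rpl18 by -0.34 ± 0.09, with 12379 to 17393 (median 15249) against 10746 to 12607 (median 11756). Both encode large-subunit proteins, and in both the lowest libraries of the virgin mice reached into the range of the pregnant mice. In 8 members, Rpl7l1, Rpl41, Rpl8, Rpl27, Rpl7a, Rpl15, Rps2 and Rps27l, all pregnant libraries lay below all virgin ones, as in 5.96% of all genes.

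**Figure D4:**
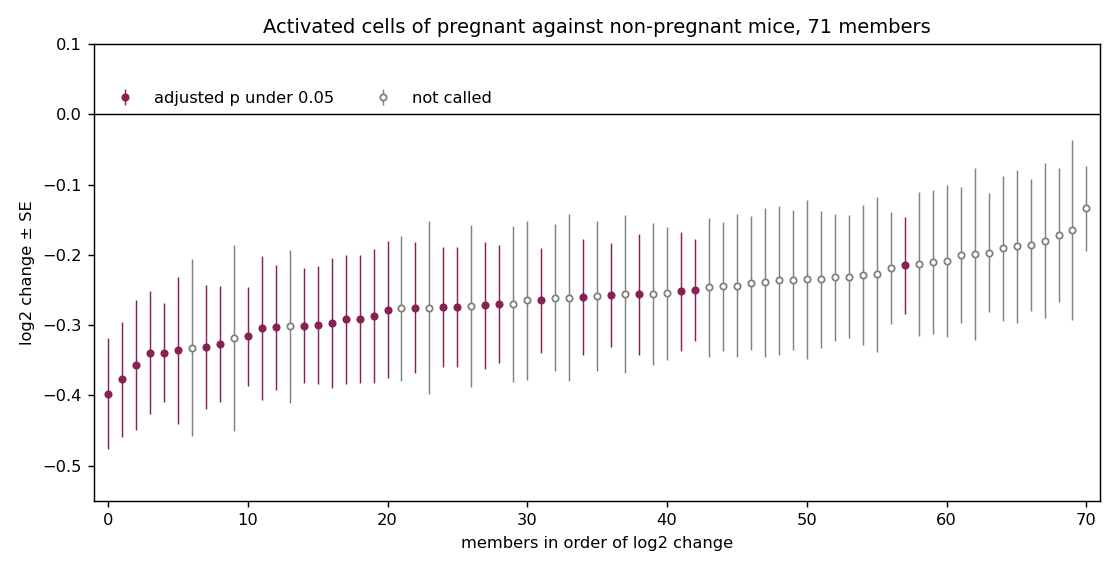
Log2 change ± SE of each of the 71 members in activated cells of pregnant against virgin mice, in order of size, with filled points for an adjusted p under 0.05. Every point lies below 0, between -0.40 and -0.13, and called and uncalled members form one continuous row.

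Among members named for roles of their own, in or outside the ribosome, Rplp1 (-0.29 ± 0.09), Rplp2 (-0.27 ± 0.09), Rpl11 (-0.27 ± 0.09), Rpl3 (-0.27 ± 0.08), Rpsa (-0.26 ± 0.08) and Rpl13a (-0.34 ± 0.11) passed, with adjusted p from 0.0296 to 0.0343. Rpl11 ran from 8999 over 10615 to 12493 normalized counts in virgin and from 8098 over 8601 to 9223 in pregnant mice, which overlap at the lower end. Rplp0 (-0.26 ± 0.10, adjusted p = 0.0592), Rpl38 (-0.27 ± 0.11, 0.081), Rps3 (-0.23 ± 0.10, 0.0999), Rps19 (-0.26 ± 0.12, 0.113), Rpl4 (-0.19 ± 0.10, 0.179), Rpl10 (-0.17 ± 0.10, 0.186) and Rpl10a (-0.20 ± 0.09, 0.0975) did not pass. The standard errors ran from 0.06 to 0.13, so that Rps21 at -0.33 ± 0.13 (adjusted p = 0.0635) did not pass and Rpl15 at -0.22 ± 0.07 (0.0343) did. Among the paralogs Rps27l (-0.30 ± 0.08) and Rpl36al (-0.26 ± 0.07) passed, and Rpl22l1, at -0.13 ± 0.06 the smallest change of all members, did not.

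The members moved together from library to library. Replicate 1 of the activated virgin mice was the lowest of its group in 61 of 71 members and replicate 2 the highest in 58. Against the group mean, the median member was at -0.32 (log2) in replicate 1, 0.20 in 2, 0.02 in 3, -0.22 in 4, 0.11 in 5 and 0.13 in 6, while the median of all genes stayed between -0.04 and 0.04. Replicate 1 lay inside the range of the pregnant mice in 44 members and below all of them in 17, and replicate 4 lay inside it in 54. In pregnant mice the 6 libraries were closer, from -0.13 to 0.10. The count of members called lower rested on these libraries. It was 66 without activated replicate 1, 42 without replicate 4, 19 without 3, 14 without 5 or 6 and 13 without 2. Over all genes it was 1311 of 10523 without replicate 1, 1134 of 10520 without 4 and 1257 of 10527 without 3. Without 5, 6 and 2 it was 1405 of 10518, 1153 of 10522 and 860 of 10525. Without activated pregnant replicate 2 the count was 13 members, beside 1018 of 10515 genes. It was 15 without replicate 3 or 6 of that group, beside 1211 of 10513 and 1119 of 10519. All 71 log2 changes stayed below 0 in each of these fits, with medians from -0.22 to -0.32. With the spread estimated over all 4 groups 1 member was called lower, where only 97 of all 10751 genes tested were.

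Non-activated cells of pregnant and virgin mice also share a kit. No member passed the test, and 4 had an unadjusted p under 0.05, where 2.88% of the 10447 genes tested were called higher, 1.74% lower and 18.2% had such a p. The median log2 change of the members was 0.16, with 61 above 0, beside -0.02 over all genes. Rps19bp1 stood highest at 1.20 ± 0.42 (SE, adjusted p = 0.139), with 294.3, 210.5 and 335.2 normalized counts in pregnant and 123.7, 100.8 and 135.8 in virgin mice, which did not overlap. Rpl37 followed at 0.74 ± 0.27 (0.149), Rpl35a at 0.59 ± 0.23 (0.181) and Rpl31, beside the tunnel exit, at 0.58 ± 0.24 (0.2). In 4 members, Rps19bp1, Rpl7l1, Rpl31 and Rpl35a, all pregnant libraries lay above all virgin ones, as in 11.9% of all genes. The authors' deposited table held 5 members higher at an adjusted p under 0.05 (Rps19bp1 at a log2 fold change of 1.22, Rpl37, Rpl35a, Rpl31 and Rpl27), beside 13.0% of all its genes. Replicate 1 of the pregnant mice was the lowest of its group in 68 members, at a median of -0.53 (log2) against the group mean, and without it the median change was 0.41; without replicate 3 it was -0.02.

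The difference between the pregnancy changes of activated and non-activated cells was tested in the fit of all 4 groups. Activated and non-activated libraries differ in kit, so this difference cannot be told apart from one between kits. That fit uses a common spread, although non-activated libraries correlated less well with each other than activated ones. Its SEs and p-values can therefore understate the spread of the non-activated side. The difference was below 0 for all 71 members, where it was below 0 for 46.5% of the 10751 genes tested, and 9 members passed, all lower, beside 7.24% of all genes. The median was -0.41 in the members and 0.06 over all genes. Rps19bp1 had -1.53 ± 0.22 (SE, adjusted p = 0.000595), Rpl37 -0.98 ± 0.28 (0.0256), Rpl35a -0.83 ± 0.23 (0.0234), Rpl31 -0.82 ± 0.22 (0.0179), Rpl7l1 -0.79 ± 0.17 (0.00599) and Rpl11 -0.61 ± 0.19 (0.0397). The other 3 were Rpl27, Rps13 and Rps15a. In Rps19bp1 the counts were higher with pregnancy in non-activated cells and lower, from 431.5 to 597.0 to 358.1 to 435.0, in activated cells. The same activated libraries enter this value and the pregnancy comparison above, so they are not independent. The count was 44 without non-activated pregnant replicate 1, beside 1024 of 10765 genes tested. Without activated replicate 1 it was 13, beside 754 of 10750. It was 5 without non-activated replicate 2, beside 705 of 10770. Without non-activated replicate 3 or non-activated pregnant replicate 3 it was 6, beside 799 of 10775 and 947 of 10774. With spread weighted by group it was 0, where only 7 of all 10751 genes were called lower.

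The make-up of the pool, each member's share of the summed counts of all 71, sets aside how much of the library the family takes. Over the 69 members other than Rpl7l1 and Rps19bp1, pregnancy in activated cells moved these shares little: 67 of 69 differed by less than 0.1 on the log2 scale, in a range from -0.13 for Rpl41 to 0.12 for Rpl22l1. Rpl4 held 4.97% ± 0.151 (SD, n = 6) of the pool in virgin and 5.20% ± 0.0512 in pregnant mice, and Rplp0 4.17% ± 0.177 and 4.18% ± 0.0806. In non-activated cells 36 of 69 differed by less than 0.1, from -0.32 for Rps2 to 0.52 for Rpl37. Between activated and non-activated cells of virgin mice, which differ in kit, 26 of 69 shares differed by more than 1, from -2.05 to 3.15. These are descriptions of the pool with no test.

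**Figure D5:**
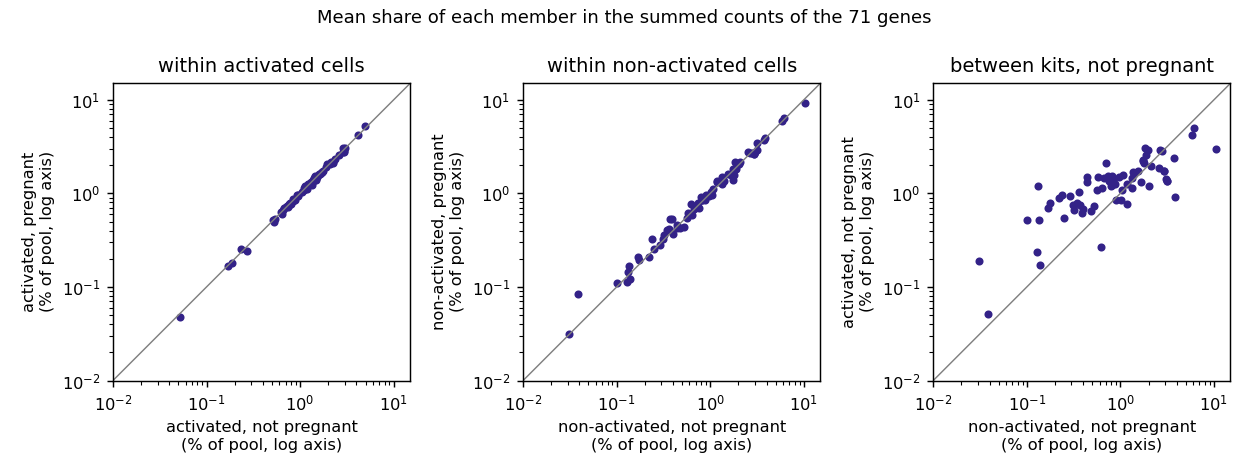
Each point is 1 of the 71 members, placed by its mean share of the members' summed counts in 2 groups, in percent on log axes, with the line of equal shares. Activated cells of virgin and pregnant mice lie on the line (67 of 69 within 0.1 on the log2 scale), non-activated cells near it (36 of 69), and groups made with different kits far from it (3 of 69).

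The members are short genes, with a median genomic span of 3.22 kb (849 to 25164 bp) beside 27.5 kb for all genes tested. With each library's trend of value on genomic span taken out, 40 of 71 members were higher and 14 lower with activation in virgin mice, beside 32.9% and 30.4% of all genes tested. In pregnant mice 37 were higher and 16 lower, beside 35.0% and 29.5% of all genes. The median change of the members fell from 2.17 to 0.57 and from 1.79 to 0.43. In virgin mice Rplp0 turned to -0.28 (limma, adjusted p = 0.0868), while Rpsa at -0.40 (0.0107) and Rpl7 at -0.38 (0.00338) were called lower. Rps21 stood at 2.48 and Rps27l at 2.69, both still called higher. In activated cells of pregnant against virgin mice 3 of 71 members were then lower, where 10.0% of all genes were, and the members' median was -0.10. RefSeq places 50 small nucleolar RNAs inside the spans of 25 members, and these RNAs carry no poly-A tail. The median log2 change with activation was 2.06 in these 25 and 2.20 in the other 46, and with pregnancy in activated cells it was -0.26 in both.

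Genes that the name rule does not take in and whose mRNAs carry a TOP motif were counted beside the members. Of 22 listed, 19 had values. With activation 18 were higher in virgin mice, with a median log2 change of 1.61, where 39.0% of all genes tested were. In pregnant mice 16 were higher and 1 lower, beside 40.3% and 32.6% of all genes. In activated cells 5 of the 19 fell with pregnancy and none rose (median -0.22), where 13.4% of all genes tested were called lower and 14.0% higher. Eef1a1, which brings tRNA to the ribosome, had 53373 ± 8320 normalized counts (SD, n = 3) in non-activated and 185625 ± 25100 (n = 6) in activated cells of virgin mice, and 159098 ± 15500 (n = 6) in activated cells of pregnant mice, where the log2 change of -0.22 ± 0.14 did not pass (adjusted p = 0.247). Eef2, the translocase, did not pass there either (-0.15 ± 0.12, 0.352). Fau, the gene of Rps30, encodes a ribosomal protein and is outside the members only by its name. Its counts fell from 6996 ± 931 (SD, n = 6) to 5544 ± 433 (n = 6), by 0.33 ± 0.09 (adjusted p = 0.0175), as those of the chaperone Npm1 did, by 0.32 ± 0.11 (0.0382).

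Of 24 listed mTORC1 and TOP regulators 19 were tested, and 9 were higher and 8 lower with activation in virgin mice, where 39.0% and 33.6% of all genes were. In pregnant mice 5 were higher and 9 lower, where 40.3% and 32.6% of all genes were. The median log2 change was 0.02 in virgin and -0.22 in pregnant mice. Myc, a driver of ribosome synthesis, rose with activation in virgin mice, from 4528 ± 1040 (SD, n = 3) to 8410 ± 1010 (n = 6), by a log2 change of 0.91 ± 0.14 (SE, adjusted p = 9.9e-06). Non-activated cells of pregnant mice held 10276 ± 1490 (n = 3), higher by 1.20 ± 0.18 (0.00168), where no ribosomal protein gene passed. Activated cells of pregnant mice held 9240 ± 1120 (n = 6), and the change with activation did not pass there (-0.15 ± 0.14, adjusted p = 0.337). Larp1 did not pass in any comparison. In activated cells 14.0% of all genes tested were called higher with pregnancy and 13.4% lower, the shares for this and the next 2 lists. Of the mTORC1 and TOP list 4 rose there and 3 fell, and the median log2 change of the list was -0.004. Eif4ebp1, the translation brake under mTORC1, was among those that fell, by 0.36 ± 0.09 (adjusted p = 0.0129). Of 16 genes of free ribosomal protein handling and the p53 checkpoint, 2 rose with pregnancy in activated cells, Mdm2 by 0.26 ± 0.06 (0.00736) and Mdm4 by 0.30 ± 0.08 (0.0172), and 5 fell, among them Trp53 by 0.28 ± 0.10 (0.0449) and Cdkn1a by 0.23 ± 0.07 (0.028). Of 9 genes of ribosome hibernation and recycling 7 rose and 1 fell with activation in virgin mice, and 3 fell with pregnancy in activated cells: Eif5a by 0.40 ± 0.13, Ifrd2 by 0.40 ± 0.12 and Ccdc124 by 0.30 ± 0.08.

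Markers of other cells moved with pregnancy in the same activated libraries, where 14.0% of all genes tested were called higher and 13.4% lower. Of 13 listed leukocyte markers 5 had values, Ptprc, Csf1r and Adgre1 not among them, all 5 were higher in activated cells of pregnant mice, and their summed normalized count was 774 to 1158 in virgin and 1571 to 7041 in pregnant mice. Lyz2, a lysozyme of myeloid cells, rose by 1.81 ± 0.28 on the log2 scale (SE, adjusted p = 0.000959). Of 12 fibro-adipogenic markers 10 had values, 8 were higher, and the sum was 73010 to 97068 against 111338 to 179742. Of 6 smooth muscle and pericyte markers 2 were higher (21179 to 30315 against 24402 to 40907). Of 6 endothelial, 5 myofibre and 1 erythroid marker none passed, and of 6 cell division markers 1 fell (sums 20839 to 35653 and 20906 to 32377). Satellite cell markers summed to 70604 to 112112 and 78205 to 125193, with 1 of 9 higher and 1 lower. No listed marker with a value was at 0 in every library of a group. The part of these cells in the lower ribosomal protein counts was not tested.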

How the data were processed

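RNA-seq was compared over 18 libraries. The deposited table gives raw and normalized counts per gene with the authors' fold changes and p-values. Per the submitters' processing notes, reads were handled with DESeq2 1.22.1, HTSeq 0.6.0, TopHat2 2.0.14 and cutadapt 1.12 on GRCm38, and strand settings and the handling of reads that map to several places are not given in the sources used here. Genes without a value carry a question mark in these columns, which therefore did not pass as count columns, so the deposited normalized counts, not the raw counts, were tested, and the count model planned for raw counts was not run. Genes with a normalized count of at least 10 in as many libraries as the smallest group were kept, and log2(value + 1) was tested with limma 3.58.1 (R 4.3.3, trend option), checked on simulated data. Fold changes are on that scale, which understates change in low genes. P-values were adjusted by Benjamini-Hochberg over all genes tested, at 0.05. Activation and its interaction with pregnancy used all 4 groups, and pregnancy used only the 2 groups compared, which share a kit. Shares, tables and figures used Python 3.11.15, pandas 2.3.3, numpy 2.4.6 and matplotlib 3.10.9. Another 6 columns belong to quadriceps libraries of another project and were not used. Replicate numbers were not used as pairs in the main fits, and whether they pair the libraries is not known.

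Named by rule were paralogs with their partners, members with roles of their own, the 4 called members with the largest change in each direction, members that went against the rest, those whose pool share moved most, and the most abundant genes of each related list with Larp1, Eef1a1, Eef2, Myc and Fau. Levels per coding length were not computed, and 1 member that the rule names is not reported here. Npm1, Eif4ebp1, Mdm4, Trp53, Cdkn1a, Eif5a, Ifrd2, Ccdc124 and Lyz2 were chosen after their values were seen, as were Rps15a and Rps13. Members and lists were chosen with earlier results of these data known. Alternatives were another pseudocount, no filter, other scalings, removal of the trend with genomic span, group weights, a replicate block, another choice of groups and each library left out.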

Additional observations from a re-analysis of the deposited data

Results flagged for a closer look

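In 4 of 68 groups of 6 libraries looked at, the highest or lowest library lay apart from the others by Dixon's test, which chance alone gives in about 1 of 20 groups. Rpl41 reached 17020 normalized counts in activated replicate 2, and Rpl22l1 reached 2302 in activated pregnant replicate 5. Activated pregnant replicate 4 was lowest for Rpl7l1, at 1614, and for Rps27l, at 1305.

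The change with pregnancy differed between activated and non-activated cells, which also differ in kit, for 9 members by the limma test of the difference (adjusted p under 0.05). Each change was lower in activated than in non-activated cells, where 7.24% of all genes tested were called lower. With group weights or a replicate block the count was 0, beside 7 of 10751 and 68 of 10734 genes. Leaving out 1 library at a time gave 5 to 44. Of the 9 members, the log2 difference of those chosen by the naming rule was -1.53 for Rps19bp1, -0.98 for Rpl37, -0.83 for Rpl35a, -0.82 for Rpl31, -0.79 for Rpl7l1 and -0.61 for Rpl11. The call ended for Rpl37 without non-activated replicate 1 or non-activated pregnant replicate 3, for Rpl31 without non-activated replicate 2, for Rpl35a without non-activated replicate 3 and for Rpl11 without any 1 library other than non-activated replicate 1, activated replicates 1 and 4, non-activated pregnant replicate 1 and activated pregnant replicates 4 and 5.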

How the results depend on the processing

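A pseudocount of 10 and no filter on low values left every count of called members and every named gene on its side of the threshold. With each library's trend on genomic span taken out, activation called 40 members higher and 14 lower in virgin mice, beside 32.9% and 30.4% of all genes. In pregnant mice it called 37 and 16, beside 35.0% and 29.5%. Pregnancy called 3 lower in activated cells, beside 1055 of 10499 genes, and the interaction 5, beside 773 of 10751. Among members named here, signs turned in virgin mice for Rpl10 (-0.067), Rpl36al (-0.22), Rpl7 (-0.38), Rpl7l1 (-0.55), Rplp0 (-0.28), Rplp1 (-0.22), Rplp2 (-0.99) and Rpsa (-0.40). Of these, Rpl7, Rpl7l1, Rplp2 and Rpsa were then called lower (limma, adjusted p = 0.00338, 0.000749, 1.84e-07 and 0.0107). In pregnant mice signs turned for Rpl10 (-0.11), Rpl36al (-0.064), Rpl4 (-0.16), Rpl7 (-0.61), Rplp0 (-0.47), Rplp1 (-0.25), Rps7 (-0.78) and Rpsa (-0.57). Of these, Rpl7, Rplp0, Rps7 and Rpsa were then called lower (limma, adjusted p = 4.18e-05, 0.00643, 0.000135 and 0.000638). Between activated groups signs turned for Rpl10 (0.002) and Rpl22l1 (0.05). With libraries scaled to the same total, Rpl13a turned to 0.053 in virgin and Rplp2 to 0.22 in pregnant mice. Activation then called 0 and 1 members lower, beside 3193 and 2814 of 10764 genes. Group weights gave 0 and 1 lower with activation, beside 3258 and 2673 of all 10751 genes, and 0 in the interaction, beside 7. A fit of all 4 groups called 1 member lower in activated cells of pregnant mice, beside 97 of all 10751 genes. It called 6 higher in non-activated cells of pregnant mice, beside 1210. A fit of the 2 groups alone called 1 lower with activation in pregnant mice, beside 3444 of 10662. The cause was not tested.

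Between activated groups, r was -0.175 to 0.141 for same-numbered libraries and -0.402 to 0.354 for the others. These values show no pairing by number and cannot exclude one. With the replicate block, activation called 0 members lower in virgin and 1 in pregnant mice, beside 3196 and 3060 of 10734 genes. Pregnancy called 9 lower in activated cells, beside 923 of 10499 genes, and 1 higher in non-activated cells, beside 346 of 10447. The interaction called 0, beside 68 of 10734.

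Leaving out 1 library at a time, members called lower ranged from 0 to 1 and 1 to 3 with activation. They ranged from 13 to 66 with pregnancy in activated cells and from 5 to 44 in the interaction. Over all genes, those called lower ranged from 3488 to 3583 and 3387 to 3526 with activation. With pregnancy in activated cells they ranged from 860 to 1405, and in the interaction from 630 to 1024. Log2 changes ranged from -0.267 to 0.016 for Rpl13a in virgin mice, and in pregnant mice from -0.272 to 0.128 for Rplp2. The median member's share was 0.0154% and 0.0851% in non-activated and activated cells of virgin mice and 0.0167% and 0.0715% in pregnant mice, and without the 20 most abundant other genes the whole share was 1.96% and 7.33% in virgin and 2.08% and 6.12% in pregnant mice.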
